A study of Homo sapiens with 6 samples.

Results

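Retinoic acid handling in human embryonic stem cells of the naive and the primed state was described through 9 genes for the uptake, synthesis, binding and breakdown of retinoids. These were STRA6 (ENSG00000137868), RDH10 (ENSG00000121039), DHRS3 (ENSG00000162496), ALDH1A2 (ENSG00000128918), ALDH1A3 (ENSG00000184254), CRABP1 (ENSG00000166426), CRABP2 (ENSG00000143320), CYP26A1 (ENSG00000095596) and CYP26B1 (ENSG00000003137). They were taken by symbol from a table of 63677 genes, and each symbol had 1 row. RNA came from the line Royan H6 (RH6) and the line Royan H5 (RH5). The 4 groups were naive RH6 at passage 10 (2 libraries), naive RH5 at passage 17 (2 libraries), primed RH6 at passage 20 (1 library) and primed RH5 at passage 16 (1 library). Naive cells were induced by what the labels call 2a2iL and then held in 2iL. Primed cells received bFGF. Feeders were inactivated mouse fibroblasts in either case, and state and medium changed together. The labels do not spell out 2a2iL or say whether a medium held a retinoid. The title of the series names NR5A2 and RARγ, a retinoic acid receptor, in the induction of the naive state, and the supply and removal of its ligand bear on that question.

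Cells make retinoic acid from vitamin A. STRA6 is a membrane receptor that takes up retinol from its plasma carrier, RDH10 oxidizes retinol to retinal, and DHRS3 reduces retinal back to retinol. ALDH1A2 and ALDH1A3 oxidize retinal to retinoic acid, CRABP1 and CRABP2 bind retinoic acid in the cytosol, with CRABP2 known to deliver it to nuclear receptors, and CYP26A1 and CYP26B1 are cytochrome P450 enzymes that break it down. In vertebrate embryos retinoic acid patterns the hindbrain and trunk through HOX genes, and CYP26A1, DHRS3 and STRA6 are known to respond to it.

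Retinoic acid receptors bind direct repeats of a 6-base core, and the promoter of CYP26A1 is a textbook case, so promoter windows from 250 bases before to 50 bases after the start (RefSeq, GRCh38.p14) were searched on both strands. The core searched was spelled AGGTCA, or else as the variant AGTTCA, the variant GGGTCA or the variant GGTTCA, repeated in the same direction with 1, 2 or 5 bases between them. Windows of 8 of the 9 genes were searched, 16 in all, and RDH10 was not among them. A repeat with a spacer of 5 was present in 1 window of CYP26A1 and in no window of the other 7 genes, and it occurred in 31 of all 35116 windows (0.0883%). Repeats with a spacer of 1 (0.131% of all windows) or 2 (0.0399%) were in none of the 16. Sequence outside these windows and other spellings of the core were not searched, so an absence holds for these windows and spellings only. The CYP26A1 repeat lies 90 to 74 bases before the start on the strand opposite the gene. It is shown beside the repeat of RARB, a receptor gene with a known element of this kind, 53 to 37 bases before its start on chromosome 3, with the cores in capitals.
CYP26A1: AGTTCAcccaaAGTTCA
RARB: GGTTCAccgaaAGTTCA

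The windows of CYP26A1 and of STRA6 and CRABP2, which rose with CRABP1 in naive RH5, are given with every core of either strand in capitals. A single core was found in 38.6% of all windows. The CYP26A1 window is chr10:93073643-93073942 (+ strand). The STRA6 window with the most single cores, 3, is chr15:74212210-74212509 (- strand), and the CRABP2 window, with 1, is chr1:156705735-156706034 (- strand), each spanning a start of the gene. STRA6 has 5 windows in all, of which another holds 1 core and the rest 0, and CYP26A1 has 2, of which the other holds 0. A match of letters describes the window and does not show binding.
CYP26A1: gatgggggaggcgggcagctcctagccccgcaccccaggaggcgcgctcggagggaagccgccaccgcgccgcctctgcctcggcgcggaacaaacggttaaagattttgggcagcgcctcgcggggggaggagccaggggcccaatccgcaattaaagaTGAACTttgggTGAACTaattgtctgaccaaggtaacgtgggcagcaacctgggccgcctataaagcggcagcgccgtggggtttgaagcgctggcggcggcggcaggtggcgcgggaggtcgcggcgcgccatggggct
STRA6: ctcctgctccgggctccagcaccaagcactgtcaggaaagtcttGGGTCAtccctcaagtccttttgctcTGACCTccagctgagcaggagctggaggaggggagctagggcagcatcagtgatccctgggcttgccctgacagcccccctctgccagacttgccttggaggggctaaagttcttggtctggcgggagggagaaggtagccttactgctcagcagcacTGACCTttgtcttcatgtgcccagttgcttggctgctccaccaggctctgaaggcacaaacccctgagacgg
CRABP2: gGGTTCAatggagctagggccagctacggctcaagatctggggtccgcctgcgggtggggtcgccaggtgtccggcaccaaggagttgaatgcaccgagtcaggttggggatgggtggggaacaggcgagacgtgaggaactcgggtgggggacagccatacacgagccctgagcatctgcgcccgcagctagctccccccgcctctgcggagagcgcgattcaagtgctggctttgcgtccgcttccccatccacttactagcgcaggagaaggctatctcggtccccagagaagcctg

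The libraries held 13457979 to 14663982 counts. All 12 pluripotency markers examined had counts in every library, with summed levels of 8237 to 10530 CPM (counts scaled to library size with TMM factors) in naive and 12040 and 13250 CPM in primed libraries. Summed markers of fibroblasts, of primitive streak and mesendoderm, and of trophectoderm and amnion were higher in every naive library. Sums of neural and endoderm genes overlapped between the states. In the edgeR test over both lines described below, 10 of 20, 6 of 15 and 7 of 15 tested genes of the first 3 lists were called higher. Lower were 3, 0 and 2, with THY1, PRRX1 and VCAM1 for fibroblasts. Of the 12 pluripotency markers, 0 were called higher and 6 lower in naive cells. Of all genes tested, 12.1% were called higher and 13.6% lower. Within RH6, 3 pluripotency markers were called higher and 4 lower, where 16.4% and 17.2% of all genes were called. Within RH5, 0 were called higher and 9 lower, where 16.5% and 17% of all genes were called. The 22 fibroblast genes summed to 916 to 1562 CPM in naive and to 441 and 450 CPM in primed libraries, with DCN and FAP under 1 CPM in every library. The 18 genes of primitive streak and mesendoderm summed to 429 to 738 against 110 and 291 CPM, and the 18 of trophectoderm and amnion to 903 to 991 against 468 and 517 CPM. The 18 neural and eye genes summed to 722 to 1184 CPM in naive libraries, 1436 CPM in primed RH6 and 850 CPM in primed RH5. These sums were mostly NES in the naive libraries, which had 562 to 1066 CPM there, 535 CPM in primed RH6 and 466 CPM in primed RH5. In the same test, 0 of the 15 tested neural and eye genes were called higher and 9 lower in naive cells. Within a line, NES and MAP2 were called higher in naive RH5 and TUBB3 in naive RH6. The 13 endoderm genes summed to 132 to 163 CPM in naive libraries, 54.7 CPM in primed RH6 and 321 CPM in primed RH5. The part of such cells in the results below was not tested, and in these bulk libraries fewer cells of a type and less RNA per cell cannot be told apart.

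Scaled by the merged exon length of GENCODE 29, CRABP2 was the highest of the 9 genes in every library, and ALDH1A2 and CYP26B1 were the lowest. On this scale CRABP2 stood at a mean of 265 CPM per kb in naive and 140 CPM per kb in primed cells. CRABP1 followed at 58.4 and 42.0 CPM per kb, and CYP26A1 at 25.6 and 56.0 CPM per kb. CRABP1 and CYP26A1 overlapped each other over the 6 libraries. DHRS3 stood at 3.19 and 6.31 CPM per kb, STRA6 at 3.13 and 1.33 CPM per kb, RDH10 at 2.04 and 1.54 CPM per kb and ALDH1A3 at 1.29 and 0.907 CPM per kb. The range of STRA6 overlapped those of its neighbours DHRS3 and RDH10, while RDH10 was above ALDH1A3 in every library. ALDH1A2, at 0.181 CPM per kb in naive and 0.300 CPM per kb in primed cells, and CYP26B1, at 0.184 and 0.0902 CPM per kb, also overlapped each other. The exon lengths are of another annotation than the counting, so levels between genes are approximate.

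**Figure D1:**
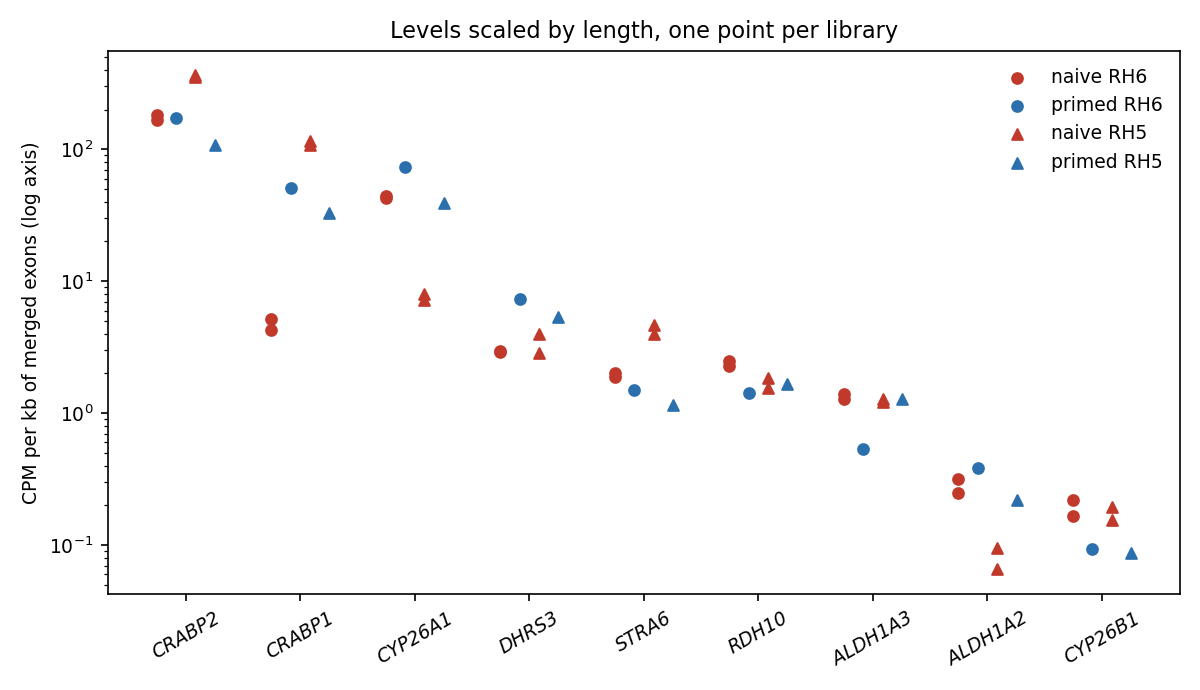
CPM per kb of merged exons (log axis) of the 9 genes, with 1 point per library, red for naive, blue for primed, circles for RH6 and triangles for RH5. CRABP2 is at the top in every library, while CRABP1 is lowest in naive RH6 and CYP26A1 is lowest in naive RH5.

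The comparison of naive with primed cells over both lines asked which of these genes followed the state whatever the line. CYP26A1 and DHRS3, which lower retinoic acid and its precursor, fell. No gene of the 9 rose by edgeR's quasi-likelihood test with Benjamini-Hochberg adjustment, 2 rose at an unadjusted p under 0.05, and 1 rose with DESeq2 and 1 with limma-voom. Of all 19434 genes tested, 13.6% were called lower and 12.1% higher. All 9 passed the filter on low counts, and their median log2 fold change was 0.38, against -0.01 over all genes.

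STRA6 was higher in each naive library than in either primed library. It had 14.4 and 15.5 CPM in naive RH6, 35.6 and 30.8 CPM in naive RH5, 11.6 CPM in primed RH6 and 8.91 CPM in primed RH5. The naive RH5 libraries were the highest, and naive and primed ranges did not overlap. Its log2 fold change over both lines was 1.08 ± 0.34 (SE) and missed the threshold (adjusted p = 0.0554). It passed with DESeq2 (adjusted p = 0.00941) and limma-voom (0.029), and the adjusted p was 2.12e-05 to 0.186 over all alternatives. In RH5 it rose by 1.90 ± 0.18 on the log2 scale, 3.72-fold (adjusted p = 3.40e-05), and in RH6 it had 0.37 ± 0.18 (adjusted p = 0.139).

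RDH10, the retinol dehydrogenase, was called higher in naive cells of RH6 and not of RH5, and the difference between the lines was not called. Its levels were 12.1 and 13.2 CPM in naive RH6, 8.28 and 9.86 CPM in naive RH5, 7.58 CPM in primed RH6 and 8.84 CPM in primed RH5. The naive RH6 libraries were above the other 4, and naive RH5 lay on both sides of primed RH5. The log2 fold change was 0.38 ± 0.22 over both lines (adjusted p = 0.244), 0.74 ± 0.21 within RH6 (adjusted p = 0.0209) and 0.04 ± 0.21 within RH5 (adjusted p = 0.917). The call in RH6 was lost with DESeq2 (adjusted p = 0.143), with a range of 0.00776 to 0.143 over the alternatives.

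DHRS3, which turns retinal back to retinol, was lower in naive cells of both lines. It had 8.83 and 8.98 CPM in naive RH6, 8.70 and 12.2 CPM in naive RH5, 22.1 CPM in primed RH6 and 16.2 CPM in primed RH5. The groups did not overlap, with every naive library under both primed libraries. The log2 fold change was -0.98 ± 0.21 (SE, adjusted p = 0.0164), a level 1.98-fold lower. Within RH6 it was -1.31 ± 0.20 (adjusted p = 7.45e-04) and within RH5 -0.63 ± 0.21 (adjusted p = 0.0417). Over both lines the call was lost without naive RH6 replicate 1 (adjusted p = 0.0598), naive RH6 replicate 2 (0.0689) or naive RH5 replicate 1 (0.0564) and when each line's naive libraries were summed (0.128), in a range of 6.15e-04 to 0.128 over the alternatives. In RH5 the call was lost with DESeq2 (adjusted p = 0.207) and, at a log2 fold change of -0.41, without naive RH5 replicate 1 (0.21), in a range of 0.00342 to 0.21.

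Neither of the 2 retinal dehydrogenase genes was called over both lines. Within a line, ALDH1A2 was called in RH5 only and ALDH1A3 in RH6 only, and the 2 were not tested against each other. ALDH1A2, the main retinoic acid synthase of early mesoderm, had 39 and 29 counts in naive RH6, 8 and 11 in naive RH5, 49 in primed RH6 and 26 in primed RH5. That is 0.566 to 2.73 CPM in naive and 1.88 and 3.29 CPM in primed libraries, with overlapping ranges and naive RH5 lowest. The log2 fold change was -0.87 ± 0.35 over both lines (adjusted p = 0.115), -0.43 ± 0.36 within RH6 (adjusted p = 0.399) and -1.44 ± 0.47 within RH5 (adjusted p = 0.0389). The RH5 call was lost with DESeq2 (adjusted p = 0.246) and without naive RH5 replicate 1 (0.139), in a range of 0.0219 to 0.246, and these counts give little precision.

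ALDH1A3, which makes retinoic acid in the developing eye and nose, stood at 8.06 and 7.36 CPM in naive RH6, 7.00 and 7.39 CPM in naive RH5, 3.09 CPM in primed RH6 and 7.39 CPM in primed RH5. Primed RH6 was the low library, and the other 5 lay within 7.00 to 8.06 CPM. Its log2 fold change was 1.32 ± 0.25 in RH6 (adjusted p = 0.00272), -0.04 ± 0.22 in RH5 (adjusted p = 0.918) and 0.57 ± 0.32 over both lines (adjusted p = 0.235).

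The binding protein CRABP1 went opposite ways in the 2 lines. It had 4.28 and 5.15 CPM in naive RH6, 116 and 107 CPM in naive RH5, 50.4 CPM in primed RH6 and 32.9 CPM in primed RH5. The primed libraries lay between the low naive RH6 and the high naive RH5 libraries. In RH6 the log2 fold change was -3.42 ± 0.15, a level 10.7-fold lower in naive cells (adjusted p = 1.98e-07). In RH5 it was 1.76 ± 0.14, a level 3.38-fold higher (adjusted p = 1.04e-05). The estimate over both lines, -1.38 ± 1.15, missed the threshold (adjusted p = 0.422) and turned to 1.77 without the primed RH6 library, where only RH5 gives the effect.

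CRABP2 was high in every library. It stood at 183 and 201 CPM in naive RH6, 385 and 399 CPM in naive RH5, 190 CPM in primed RH6 and 118 CPM in primed RH5. Primed RH6 lay between the naive RH6 libraries, and naive RH5 was highest. The log2 fold change was 0.01 ± 0.12 in RH6 (adjusted p = 0.947), 1.73 ± 0.13 in RH5 (adjusted p = 5.06e-06) and 0.79 ± 0.36 over both lines (adjusted p = 0.154).

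CYP26A1, the main retinoic acid hydroxylase of the early embryo, was lower in naive than in primed cells of each line. It had 131 and 128 CPM in naive RH6, 23.6 and 21.3 CPM in naive RH5, 218 CPM in primed RH6 and 115 CPM in primed RH5. Each naive pair lay under its own line's primed library, but naive RH6 was above primed RH5, so the ranges of the states overlapped. The log2 fold change was -1.60 ± 0.32 over both lines, 3.04-fold lower (adjusted p = 0.0114). It was -0.75 ± 0.11 in RH6, 1.68-fold lower (adjusted p = 6.06e-04), and -2.36 ± 0.12 in RH5, 5.13-fold lower (adjusted p = 5.04e-07). The call over both lines did not hold without naive RH5 replicate 1 (adjusted p = 0.0503), without the line term (0.353) and with the naive libraries summed (0.0966), in a range of 2.64e-07 to 0.353 over the alternatives. Leaving out primed RH6 gave -2.35, which is the RH5 effect, and leaving out primed RH5 gave -0.72, which is the RH6 effect.

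CYP26B1, a related enzyme that in embryos acts in hindbrain, limbs and gonads, was close to the limit of detection. It had 12 and 15 counts in naive RH6, 11 and 13 in naive RH5, 7 in primed RH6 and 6 in primed RH5. All naive libraries were above both primed libraries, at 0.778 to 1.10 CPM against 0.435 and 0.470 CPM. With a log2 fold change of 1.01 ± 0.42 it missed the threshold (adjusted p = 0.122), as it did in RH6 (1.03 ± 0.62, adjusted p = 0.232) and RH5 (0.99 ± 0.65, adjusted p = 0.274).

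**Figure D2:**
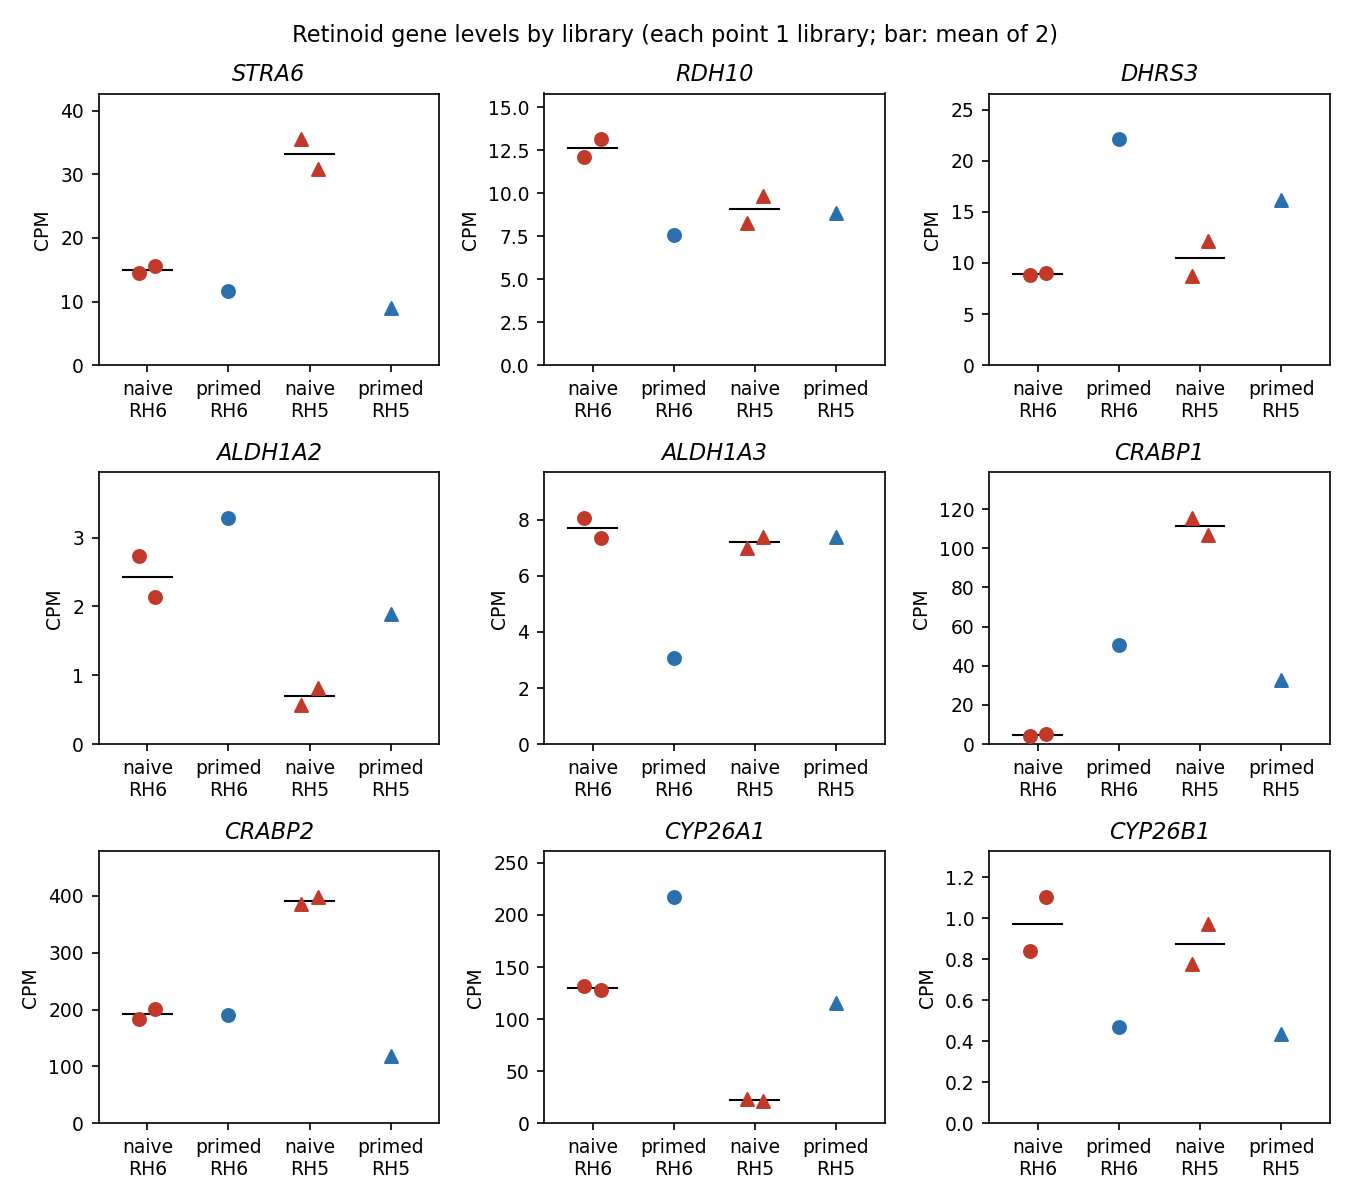
Level in CPM of each of the 9 genes, with 1 point per library and a bar at the mean of the 2 naive libraries of a line, red for naive, blue for primed, circles for RH6 and triangles for RH5. CRABP1 is at 4.28 and 5.15 CPM in naive RH6 and at 116 and 107 CPM in naive RH5, with the primed libraries between them, while DHRS3 is lower in every naive library.

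Within a line the effect was set against the spread of the naive duplicates alone, which assumes that the single primed library varies as they do. State and passage number also changed together, with naive at passage 10 and primed at 20 in RH6, and naive at 17 and primed at 16 in RH5. In RH6, ALDH1A3 and RDH10 rose while CRABP1, DHRS3 and CYP26A1 fell, so 2 were higher and 3 lower, where 16.4% and 17.2% of all genes tested were called (33.6% in either direction). In RH5, STRA6, CRABP1 and CRABP2 rose while CYP26A1, ALDH1A2 and DHRS3 fell, so 3 were higher and 3 lower, where 16.5% and 17% of all genes were called (33.5% in either direction). The directions of CYP26A1 and DHRS3 were shared by the lines.

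Whether the state effect differed between the lines was tested as RH6 minus RH5. The passage gap between the states also differed between the lines, so line and passage cannot be told apart here. The state effect differed in 5 of the 9 genes, 2 more positive and 3 more negative in RH6. Of all genes tested, 12% were called, 5.86% more positive and 6.16% more negative. CRABP1 had a difference of -5.18 ± 0.21 on the log2 scale (adjusted p = 1.49e-06), made up of its fall in RH6 and rise in RH5. CRABP2 had -1.71 ± 0.17 (adjusted p = 1.59e-04) and STRA6 -1.53 ± 0.25 (adjusted p = 0.00351), each called higher in RH5 and not called in RH6. CYP26A1 had 1.61 ± 0.17 (adjusted p = 2.64e-04), from the smaller fall in RH6. ALDH1A3 had 1.36 ± 0.34 (adjusted p = 0.0274), which was lost with DESeq2 (adjusted p = 0.207, with 0.00909 to 0.207 over the alternatives). DHRS3, at -0.68 ± 0.30 (adjusted p = 0.177), RDH10, at 0.70 ± 0.30 (0.161), ALDH1A2, at 1.01 ± 0.59 (0.32), and CYP26B1, at 0.04 ± 0.96 (0.988), were not called, and DHRS3 was called without naive RH5 replicate 1 at -0.92 (0.0358).

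**Figure D3:**
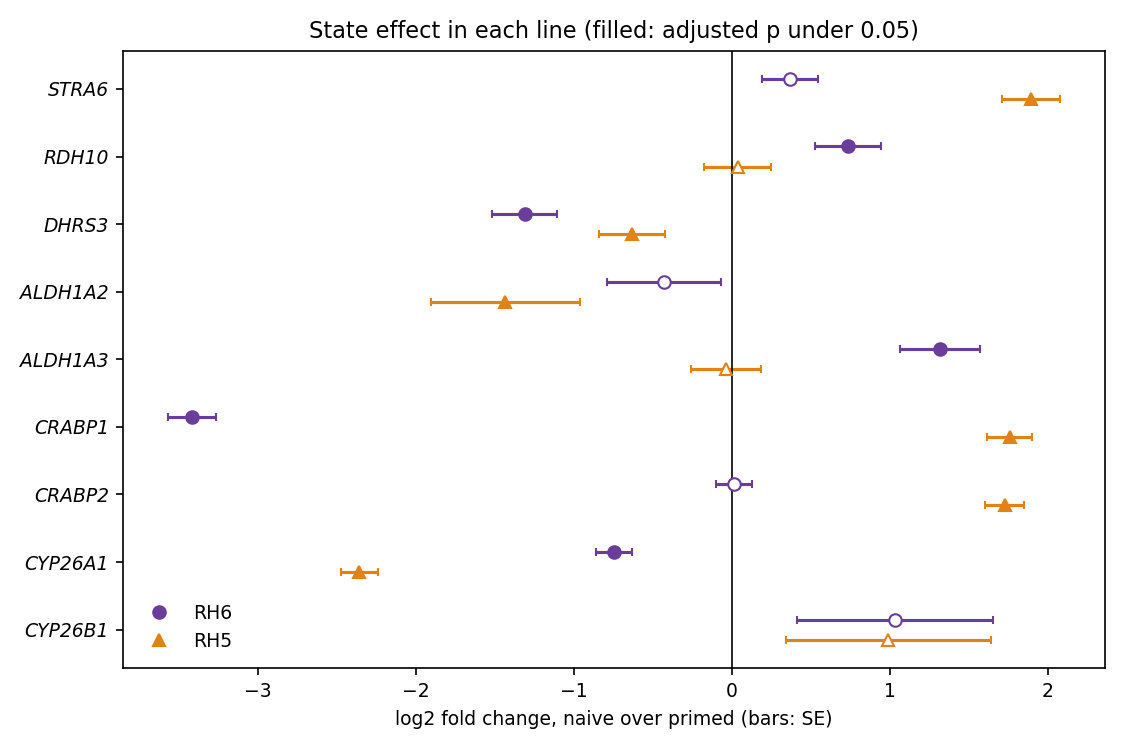
Log2 fold change of naive over primed (x axis, with SE bars) for the 9 genes in RH6 (purple circles) and RH5 (orange triangles), filled where the adjusted p was under 0.05. CRABP1 lies at -3.42 in RH6 and 1.76 in RH5, whereas CYP26A1 and DHRS3 lie left of 0 in both lines.

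The naive cultures of the 2 lines, the only groups with 2 libraries each, handled these genes differently. Naive RH6 had less CRABP1, 23.6-fold lower than naive RH5 (log2 fold change -4.56 ± 0.14, adjusted p = 3.68e-08). It also had less STRA6 (-1.15 ± 0.13, adjusted p = 1.86e-04) and less CRABP2 (-1.03 ± 0.10, adjusted p = 4.40e-05). It had 5.77-fold more CYP26A1 (2.53 ± 0.11, adjusted p = 2.52e-07) and 3.50-fold more ALDH1A2 (1.81 ± 0.38, adjusted p = 0.00659). The ALDH1A2 call was lost with DESeq2 (adjusted p = 0.0591, with 7.59e-05 to 0.0591 over the alternatives). These were 2 higher and 3 lower of 9, where 12% of all genes were called higher in naive RH6 and 13.5% lower. RDH10 was not called (0.48 ± 0.17, adjusted p = 0.0577) but was with no low-count filter (0.048) and with the replicate number as a block (0.00607), in a range of 0.00607 to 0.348. ALDH1A3, DHRS3 and CYP26B1 had differences of 0.10 ± 0.18, -0.23 ± 0.18 and 0.15 ± 0.45. Line and passage number differ together between these groups and cannot be told apart.

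Of 32 other enzymes and carriers of retinoids, 15 passed the filter, of which 2 rose and 2 fell over both lines, where 12.1% of all genes were called higher and 13.6% lower, so the list's share was near that of all genes. The median log2 fold change of the list was -0.06. RBP5 and RBP7, retinol carriers, fell by 1.46 ± 0.31 (adjusted p = 0.0155) and by 2.70 ± 0.76 (adjusted p = 0.039) on the log2 scale. Both were low, at 0.515 to 1.77 CPM in naive and 2.08 and 3.98 CPM in primed libraries for RBP5, and under 1 CPM in all libraries for RBP7. RBP5 missed the threshold without naive RH5 replicate 2 (adjusted p = 0.053), without the line term or with the libraries summed, in a range of 0.00459 to 0.129. RBP7 was lost with DESeq2 (0.093) and without naive RH6 replicate 1 (0.0935), naive RH6 replicate 2 (0.117), naive RH5 replicate 1 (0.0654), primed RH6 (0.102) or primed RH5 (0.0685), as well as without the line term (0.0506) and with the libraries summed (0.0852), in a range of 0.0115 to 0.117.

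RETSAT, named after its value was seen, which saturates retinol, rose, and its log2 fold change over both lines was 0.80 ± 0.18 (adjusted p = 0.0167). It was lost without naive RH6 replicate 1 (0.0533), naive RH6 replicate 2 (0.0534) or naive RH5 replicate 1 (0.0659) and with the libraries summed (0.194), in a range of 0.0063 to 0.194. FABP5, a fatty acid carrier that also binds retinoic acid, was named after its value was seen. It had 134 and 166 CPM in naive RH6, 91.7 and 84.3 CPM in naive RH5, 45.6 CPM in primed RH6 and 69.2 CPM in primed RH5. Its log2 fold change was 1.72 ± 0.16 within RH6 (adjusted p = 1.85e-05) and 0.35 ± 0.15 within RH5 (adjusted p = 0.0956), a difference of 1.37 ± 0.21 (adjusted p = 0.00223). LRAT, which stores retinol as esters, stood at 102 to 131 CPM in naive and at 148 and 112 CPM in primed libraries and was not called (-0.17 ± 0.10, adjusted p = 0.255).

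All 6 receptor genes were tested, and 2 fell and 0 rose by edgeR over both lines, with 0 higher at an unadjusted p under 0.05, with DESeq2 or with limma-voom. Of all genes tested, 13.6% were called lower and 12.1% higher, and a list of 6 genes is too short to set apart from these shares. RARG, the receptor named in the title, fell by 1.05 ± 0.14 on the log2 scale (adjusted p = 0.00224), and RXRA, a partner of all RARs, fell by 0.60 ± 0.14 (adjusted p = 0.0197). RARG was lost when each line's naive libraries were summed (0.0583, in a range of 1.57e-07 to 0.0583). RXRA was lost there (0.217) and without naive RH6 replicate 1 (0.0667), naive RH6 replicate 2 (0.0734), naive RH5 replicate 1 (0.0626) or primed RH6 (0.0596), in a range of 0.00155 to 0.217. RARB, whose promoter repeat is shown above, had 6.38 and 6.55 CPM in naive RH6, 4.31 and 3.96 CPM in naive RH5, 2.35 CPM in primed RH6 and 3.91 CPM in primed RH5, with 0.72 ± 0.34 over both lines, which was not called (adjusted p = 0.165). Within RH6 it rose 2.75-fold in naive cells (1.46 ± 0.29, adjusted p = 0.0033), within RH5 it was not called (0.08 ± 0.28, adjusted p = 0.851), and the difference of 1.38 ± 0.40 missed the threshold (adjusted p = 0.0519).

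Genes known as targets of retinoic acid in embryos or cultured cells, mainly the early HOX genes, were higher in naive cells. Of 28 on the list, 22 passed the filter, of which 11 rose and 3 fell over both lines. Of all genes tested, 12.1% were called higher and 13.6% lower, so the share that fell was near that of all genes. The list's median log2 fold change was 1.67, also with the 1 gene of 0 primed counts at its bound, against -0.01 over all genes. Many genes of the list also answer to other signals. HOXA3 had 424 counts over the naive libraries and 0 over the primed ones, which is at least 73.3-fold higher against a floor of 3 counts over the primed libraries. The caudal gene CDX1 had 558 against 2 counts, a ratio of 145 with a 95% counting interval of 39.9 to 1200. HOXB5 had 176 against 1 count, a ratio of 91.3 with an interval of 16.2 to 3620. HOXA3 was 15.6 and 14.3 CPM in naive RH5 but 0.350 and 0.441 CPM in naive RH6, so that its bound rests on RH5, and its call (adjusted p = 4.06e-04) was lost without the line term (0.0997, in a range of 1.01e-09 to 0.0997).

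HOXB1 and MEIS2, targets named after their values were seen, also had a state effect that differed between the lines. HOXB1 rose in both lines and more in RH5, while MEIS2 rose in RH5 and was not called in RH6. HOXB1, a hindbrain HOX gene, had 6.66 and 8.02 CPM in naive RH6, 44.0 and 67.5 CPM in naive RH5, 0.872 CPM in primed RH6 and 0.145 CPM in primed RH5. Its effect differed between the lines by -5.44 ± 1.08 (adjusted p = 0.00939), which was lost with limma-voom (0.079, in a range of 7.69e-09 to 0.079). MEIS2, a HOX cofactor, had 16.7 and 15.7 CPM in naive RH6, 51.3 and 47.3 CPM in naive RH5, 20.5 CPM in primed RH6 and 12.5 CPM in primed RH5. Naive RH6 was not called against primed RH6 (-0.34 ± 0.15, adjusted p = 0.109), whereas RH5 gave 1.98 ± 0.16 (adjusted p = 9.53e-06), a difference of -2.32 ± 0.22 (adjusted p = 1.18e-04).

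**Figure D4:**
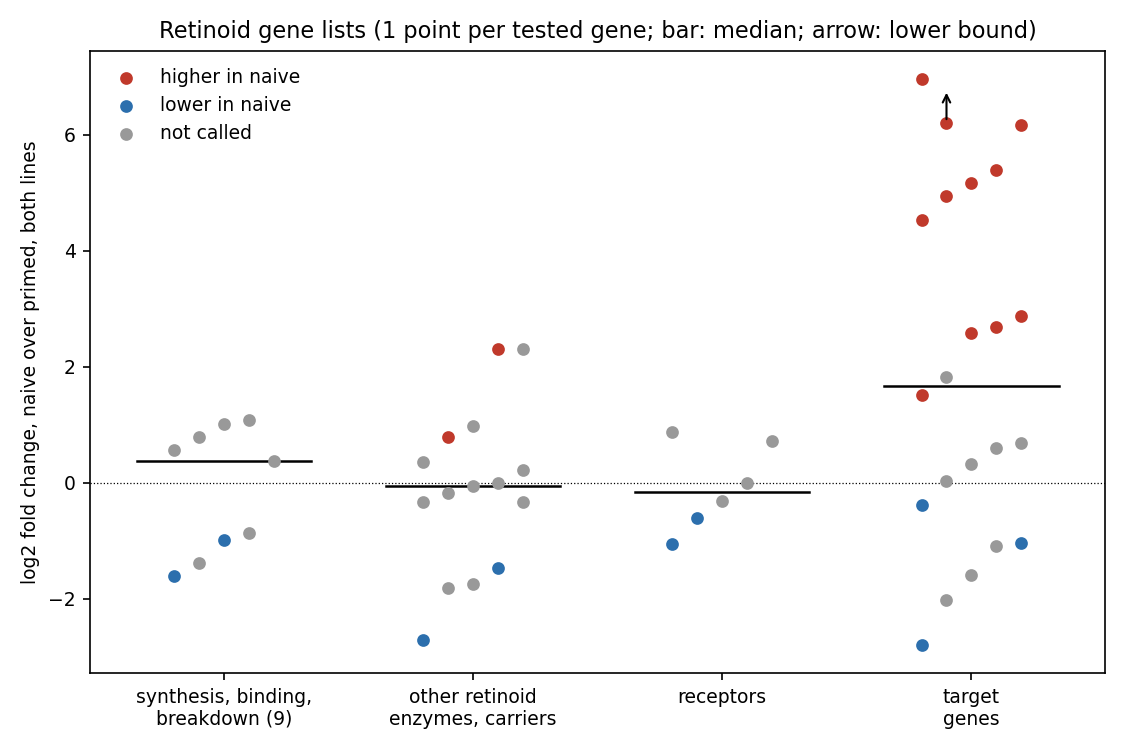
Log2 fold change of naive over primed over both lines (y axis) for each tested gene of 4 retinoid lists, red where called higher, blue where called lower and grey where not called, with a bar at the median of each list. HOXA3, with 0 counts in primed libraries, is drawn at its lower bound with an arrow. The medians are 0.38 for the 9 genes, -0.06 for other enzymes and carriers, -0.16 for receptors and 1.67 for targets.

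The genes with the pattern most like that of each of the 9 were found by the root mean square difference of log2 CPM, each gene centred on its mean, over the 6 libraries. For CRABP1 these were EGR2 (0.252), PAX2 (0.323) and CLEC11A (0.364), where CRABP1 itself varied by 1.90 around its mean. EGR2, a zinc finger factor of the hindbrain, had 1.33 and 1.84 CPM in naive RH6, 25.9 and 28.1 CPM in naive RH5, 16.8 CPM in primed RH6 and 8.69 CPM in primed RH5. For CYP26A1, which varied by 1.29, they were KLHDC7A (0.161), the orphan nuclear receptor gene NR4A2 (0.228) and CTC-484M2.1 (0.232). STRA6, which varied by 0.714, was closest to NOD1 (0.039), a sensor of bacterial peptides, and CRABP2, which varied by 0.621, to RBMX2 (0.066). For DHRS3 the nearest were ZBTB20 (0.077), TMCC2 (0.087) and RP3-497J21.1 (0.088), and for ALDH1A3 they were MYOF (0.107), FMO5 (0.113) and ZFP28 (0.119). ALDH1A2 lay nearest to ACADSB (0.153), SEMA6D (0.163) and PRKD1 (0.17). RDH10 varied by 0.283 around its mean. CYP26B1 varied by 0.417, but it had only 6 to 15 counts per library, and the prior count of 2 draws such low counts together. RDH10 lay nearest to ZNF626 (0.053), AP2S1 (0.057) and ATF5 (0.059), and CYP26B1 to RAB7A (0.065), DNAJB11 (0.077) and BOD1L1 (0.08). With 6 libraries in 4 groups, such likeness is a description.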

How the data were processed

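RNA was isolated without small RNA, treated with DNase and sequenced as paired reads from a stranded total RNA kit, per the labels' protocols, although the labels give polyA RNA as the molecule. The deposited table holds raw counts of reads for each gene. Tools listed in the submitters' processing notes are featureCounts 1.4.5-p1 (Subread), STAR 2.4.0a, DESeq2 and FastQC, with hg19 and GRCh37.p5 as builds. The sources used here give neither the annotation nor the strand setting of the counting, nor how mouse feeder reads were treated. Where counting ignored strand, reads of antisense genes would be included. Genes of GENCODE 29 whose exons overlap a member and that have a row held at most 13 counts in a library. Symbols with several rows were taken at the row whose identifier is in the GENCODE 29 primary assembly.

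Counts were tested with edgeR 4.0.16 (R 4.3.3) by the quasi-likelihood F-test with TMM factors (0.964 to 1.029), on the 19434 genes that passed filterByExpr (state as group, minimum count 10, minimum total 15). The state effect over both lines used all 6 libraries with the line as a term (3 residual degrees of freedom, coefficient of variation 0.189). Effects within a line, their difference and naive RH6 against naive RH5 were contrasts of group means (2 residual degrees of freedom, coefficient of variation 0.096). P-values were two-sided and adjusted over all genes by the Benjamini-Hochberg method, and a gene was called under 0.05. The SE is the size of the log2 fold change divided by the square root of F. Log2 CPM used a prior count of 2. Naive duplicates differed by more than counting noise (chi-square per gene of 9.22 and 5.76) and were kept apart. The labels do not say whether the duplicates are separate cultures. The p-values therefore reflect spread among these libraries only, possibly technical. Counting intervals and floors cover counting error only. Fits were tested on simulated data.

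The alternatives were DESeq2 1.42.0, limma-voom (limma 3.58.1), RLE factors, no low-count filter, leaving out each library, no line term, summed naive libraries and a replicate block. Named were the 9 members, the 3 called genes of largest change on each retinoid list, the 3 genes most like each member, and others where stated, and 1 gene of these lists is not reported here. Members and lists were chosen with earlier results of these data known.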

Additional observations from a re-analysis of the deposited data

Results flagged for a closer look

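The state effect differed between the lines, by a contrast of RH6 minus RH5, in 5 of the 9 genes, where 12% of all genes tested were called. The log2 difference was -5.18 for CRABP1, with every naive RH6 library under primed RH6 and every naive RH5 library above primed RH5. It was -1.71 for CRABP2, -1.53 for STRA6, 1.61 for CYP26A1 and 1.36 for ALDH1A3. Among the 4 naive libraries, DHRS3 had a library far from the others, naive RH5 replicate 2 at 12.2 CPM against 8.70 to 8.98 CPM, with a gap of 0.92 of the whole range. These 4 libraries are 2 duplicates from each of 2 lines, so how often chance gives such a gap is not known here. All 9 genes were examined. The cause was not tested in any of these.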

How the results depend on the processing

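Over both lines, 2 of the 9 genes and 4996 of all genes were called. Without a low-count filter 4 of the 9 were called, without the line term 1, and when each line's naive libraries were summed 0 of the 9 and 1127 genes. Leaving out each library gave 0 to 6 of the 9 and 2961 to 6704 genes, and the CRABP1 effect ran from -3.39 without primed RH5 to 1.77 without primed RH6, each being the other line's effect. DESeq2 called fewer genes in the other comparisons, with 4036 against 6528 in RH6, 3936 against 6506 in RH5, 1305 against 2337 for the difference between the lines and 2856 against 4952 for naive RH6 against naive RH5. The cause was not tested. Of 404 values of the 9 genes under the alternatives, 376 kept their side of the threshold, 14 lost and 13 gained a call. The remaining 1, CRABP1 without primed RH6, changed sign and gained a call. Those that kept their side include uncalled values that changed sign, such as CRABP2 in RH6. It had 0.013 in the main fit and -0.054 to 0.077 over the alternatives. The median log2 fold change of all genes over both lines was 0.002 with RLE and -0.007 with TMM factors. Same-numbered naive libraries deviated together at a correlation of 0.14 across genes, and with only 2 numbers this does not show a pairing. With the replicate block, naive RH6 against naive RH5 called 7404 genes and 6 of the 9, the addition being RDH10 (adjusted p = 0.00607). Primed libraries carry no number, so the other comparisons had no block. The counts of ALDH1A2 and CYP26B1, 64 to 162 over all libraries, limit what can be seen for them.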

Other observations

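The balance of the 2 retinoic acid binding proteins set naive RH6 apart. Per exon length, CRABP2 was 38.5 and 35.2 times the level of CRABP1 in naive RH6, 3.01 and 3.36 times in naive RH5, 3.40 times in primed RH6 and 3.25 times in primed RH5. In naive RH5 both genes were higher than in primed RH5, so their ratio stayed near that of the primed libraries. CYP26A1 was 264 and 196 times the level of CYP26B1 in naive RH6, 51.2 and 37.0 times in naive RH5, 782 times in primed RH6 and 448 times in primed RH5, with few counts of CYP26B1. ALDH1A3 was 4.40 and 5.15 times the level of ALDH1A2 in naive RH6, 18.5 and 13.4 times in naive RH5, 1.4 times in primed RH6 and 5.86 times in primed RH5. These ratios were chosen after the values were seen and carry no test.

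TFAP2A, a factor of neural crest and surface ectoderm from the list of trophectoderm and amnion, had 11.2 and 8.98 CPM in naive RH6, 76.9 and 78.9 CPM in naive RH5, 44.1 CPM in primed RH6 and 18.0 CPM in primed RH5, an order of groups like that of CRABP1.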
